A study of Mus musculus with 5 samples.

Results

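The collapsin response mediator proteins (CRMPs) are encoded by 5 genes in the mouse, Crmp1, Dpysl2, Dpysl3, Dpysl4 and Dpysl5, and the regions bound by NEUROD2 at these genes in the embryonic cortex are described here. A region was assigned to a gene when the midpoints of its peaks lay within the span of the longest annotated transcript or up to 50 kb from either end, and overlapping peaks of different antibodies were merged. By this rule 41 of the 53833 merged regions of the genome belonged to the family, made of 79 peaks. The rule itself uses no measured value, although the family was picked with earlier results of these data known.

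NEUROD2, a basic helix-loop-helix transcription factor of cortical projection neurons, was measured by ChIP-Seq (chromatin immunoprecipitation and sequencing) in cerebral cortex dissected from BALB/c embryos at E14.5. Chromatin was precipitated with 3 NEUROD2 antibodies, a mouse antibody (ab1) and a pair of rabbit antibodies (ab2 and ab3), and with 2 GFP antibodies that served as controls for peak calling. The labels give no genetic change or treatment and 1 age, so no genotype, treatment or time is compared, and the only spread that can be seen is that between antibodies. Each antibody has 1 library, prepared from tissue pooled over many embryos, and ab2 and ab3 share the rabbit GFP control. With ab1 51841 peaks were listed, with ab2 35310 and with ab3 7470. A score stands beside each peak, read here as the 10 times -log10 p that MACS writes although the files do not name it, but no read counts, so the depth behind a peak is unknown. A score of exactly 3100 was shared by 661 ab1 peaks and 62 ab2 peaks, while 69 and 14 peaks scored higher, up to 3233, so peaks tied at 3100 cannot be ranked by that antibody.

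CRMPs are cytosolic phosphoproteins of differentiating neurons, related in sequence to the pyrimidine-degrading enzyme dihydropyrimidinase but without its activity. CRMP2, the product of Dpysl2, binds tubulin dimers and promotes microtubule assembly in growing axons, and the family was named for its part in the collapse of growth cones exposed to semaphorin 3A. Phosphorylation by Cdk5 primes CRMPs for GSK3, and the phosphorylated proteins bind tubulin less well. NEUROD2 recognises the E-box, whose loose form is CANNTG. The longer form looked for here, the extended E-box, is a core of CAGCTG or CAGATG or CATCTG or CATATG with G or T as its next base, on either strand, and matches with the same 6-base core were counted once.

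The sequences that follow show the extended E-box nearest to the midpoint of a region at 4 of the loci, in the GRCm38 (mm10) reference. The region taken had the highest summed score among those with the most antibodies at its locus. Capitals mark the 6-base cores of extended E-boxes, and each stretch is 120 bp long.
Dpysl5 region 8, chr5:30738144-30738263, plus strand: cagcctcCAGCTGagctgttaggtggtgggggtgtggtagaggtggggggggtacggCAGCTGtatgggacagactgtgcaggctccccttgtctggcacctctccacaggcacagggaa
Dpysl4 region 1, chr7:139077486-139077605, plus strand: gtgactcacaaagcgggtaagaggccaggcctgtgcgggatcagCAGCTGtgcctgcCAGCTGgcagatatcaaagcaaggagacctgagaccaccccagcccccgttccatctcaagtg
Dpysl2 region 5, chr14:66868856-66868975, plus strand: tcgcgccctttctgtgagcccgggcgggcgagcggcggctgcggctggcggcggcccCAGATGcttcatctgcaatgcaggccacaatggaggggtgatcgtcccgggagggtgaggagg
Crmp1 region 2, chr5:37197586-37197705, plus strand: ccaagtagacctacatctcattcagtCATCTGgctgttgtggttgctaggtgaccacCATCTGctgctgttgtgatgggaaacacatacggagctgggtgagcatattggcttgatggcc
The stretches from Dpysl5 and Dpysl4 each held a pair of CAGCTG cores, whose starts were 50 bp and 13 bp apart. The Crmp1 stretch held a pair of CATCTG cores, which read CAGATG on the other strand, with starts 31 bp apart. The Dpysl2 stretch held a single CAGATG core within GC-rich sequence beside the start site. In none of the 4 did an extended E-box fall within 100 bp of the midpoint of the region.

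Of the 41 regions, 25 held peaks of 2 or 3 antibodies, and these shared regions are the basis of the counts given for each gene. In 17 of the 25 the antibodies were ab1 and ab2, and in 8 they were all 3. Of the 16 regions of 1 antibody, 15 came from ab1 and 1 from ab2, and no ab3 peak stood alone. The shared regions numbered 4 at Crmp1, 4 at Dpysl2, 4 at Dpysl3, 4 at Dpysl4 and 9 at Dpysl5. Every member had at least 1 of them, as did 67.6% of the 21938 protein-coding genes with windows drawn in the same way. Leaving out ab1 or ab2 left 8 shared regions in each case, because ab3 joined in no region that lacked either of the others, and leaving out ab3 left 25. The 8 lay at Dpysl3 (1), Dpysl4 (3) and Dpysl5 (4), so that Crmp1 and Dpysl2 rest on ab1 and ab2 together. At Crmp1 the count was 1 when peaks scored at least 100, 1 within the gene span or a window of 10 kb and 10 in a window of 100 kb. Dpysl2 and Dpysl3 each had 2 when peaks scored at least 100, and Dpysl4 had 0 within its gene span.

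**Figure D1:**
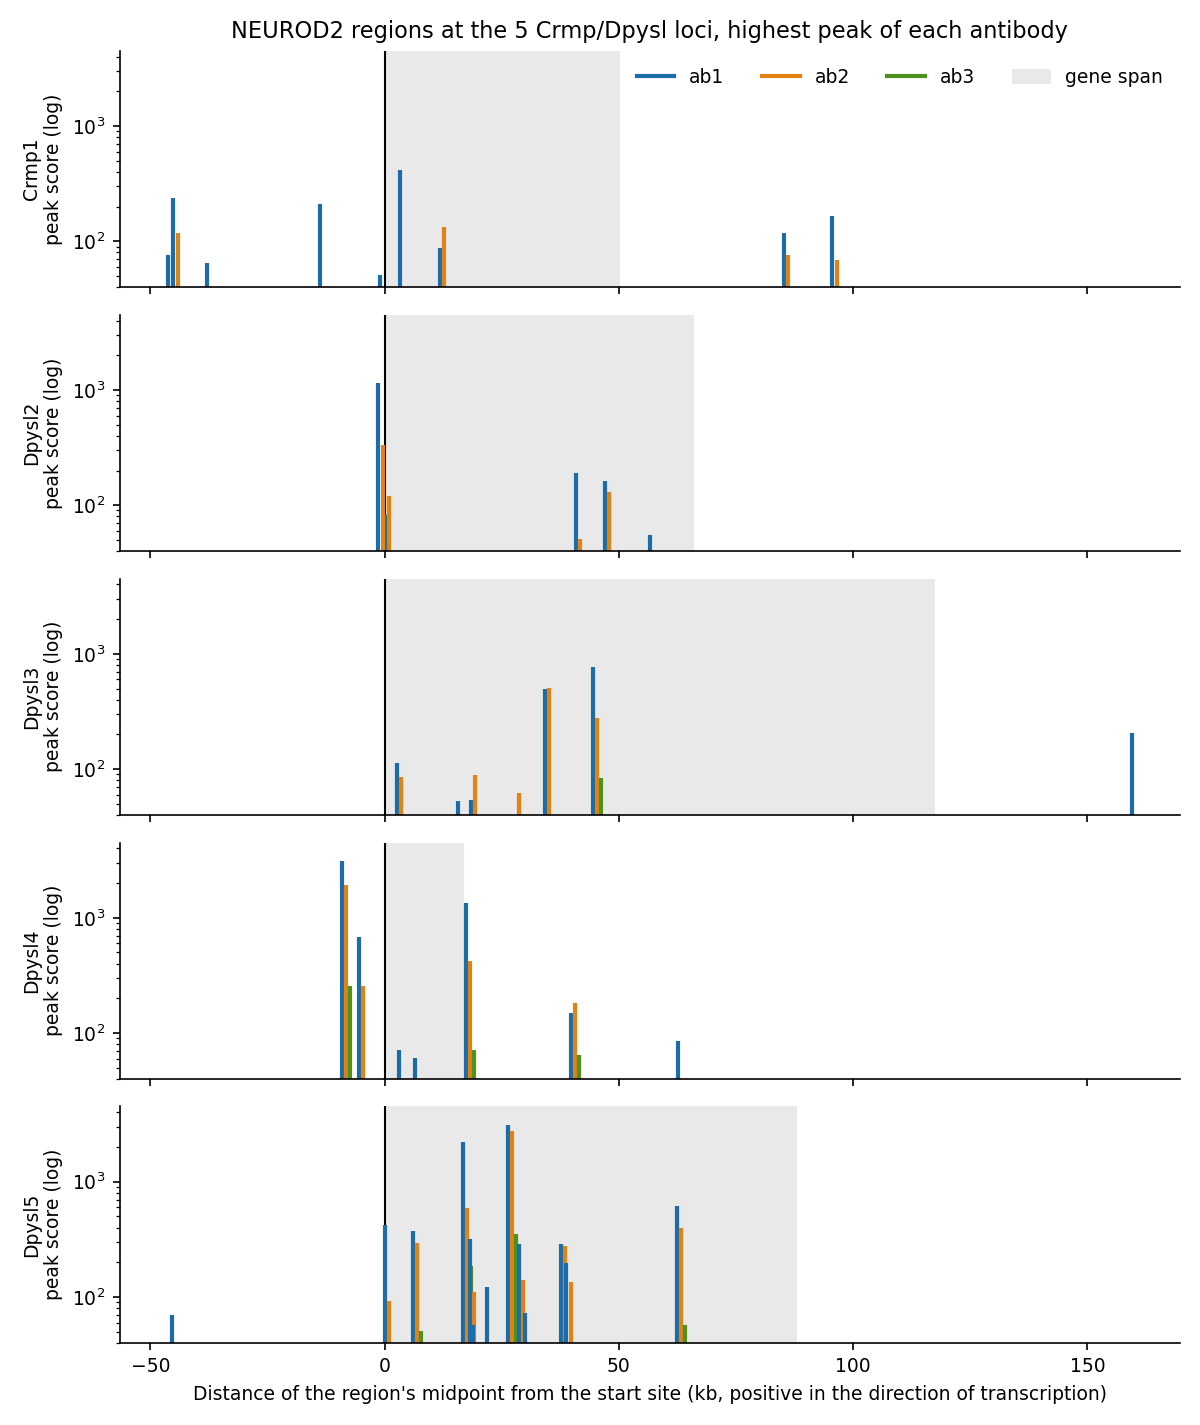
Regions at the 5 loci against distance of their midpoint from the start site of the longest transcript (kb, positive in the direction of transcription), with the highest score of each antibody on a log axis. Bars of ab1, ab2 and ab3 are drawn 0.9 kb apart so that they can be seen, and the grey band is the gene span. The midpoints of the 9 shared regions of Dpysl5 all lie inside its gene.

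Dpysl5 carried the most NEUROD2 regions of the family. It encodes CRMP5, which binds tubulin and counters the neurite-promoting action of CRMP2. The gene (ENSMUSG00000029168.14) lies on the plus strand at chr5:30711564-30799375 and spans 87.8 kb. Its window held 15 ab1 peaks, 11 ab2 peaks and 5 ab3 peaks, or 10.3 ± 5.03 (SD, n = 3 antibodies), and all 3 counts were above those of 97.1% of protein-coding genes or more. The peaks formed 13 regions, 9 of them shared and 4 with all 3 antibodies. With 9 shared regions the gene ranked at 665 of 21938, above 96.1% of protein-coding genes, and with 4.79 per 100 kb it was above 94.6%.

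By midpoint all 9 shared regions of Dpysl5 lay in introns, 6 in intron 1 and 3 in intron 2. Intron 1 makes up 37.8% of the gene span. From just upstream of the start site into intron 2, with no gap over 15 kb, a run of 40.5 kb (chr5:30711100-30751625) held 11 of the 13 regions, and peaks covered 12.9 kb of it. The remaining shared region stood apart at 63.2 kb from the start site.

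The strongest region of the whole family was Dpysl5 region 8 (regions are numbered along the chromosome), at chr5:30736832-30740594 in intron 1, 27.1 kb downstream of the start site. Its highest scores were 3100 for ab1, 2756 for ab2 and 351 for ab3, above 98.6%, 99.6% and 93.5% of the peaks in each list. It was 3763 bp wide, wider than 99.7% of the shared regions of the genome, and was merged from 6 peaks. The pair of CAGCTG cores shown above for it lay 509 bp from the midpoint at the nearest. The whole region held 7 extended E-boxes, or 1.86 per kb against a genome median of 2.24.

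Dpysl5 region 4, at chr5:30728614-30729632 in intron 1 and 17.6 kb from the start site, scored 2228 with ab1, 590 with ab2 and 186 with ab3. It held 6 extended E-boxes, or 5.89 per kb, a density above that of 96.2% of the shared regions of the genome. Around the peak with the highest score, 4 CAGCTG cores stood in a row with starts 33 bp apart. The stretch was chosen after its values were seen.
Dpysl5 region 4, chr5:30728922-30729121, plus strand: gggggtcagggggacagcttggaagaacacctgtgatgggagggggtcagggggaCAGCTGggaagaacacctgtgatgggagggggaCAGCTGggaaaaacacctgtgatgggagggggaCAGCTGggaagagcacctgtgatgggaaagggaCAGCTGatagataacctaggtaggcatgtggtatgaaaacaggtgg
Capitals mark the cores as before. From one core to the next the sequence was a tandem repeat of 33 bp, and the 3 full units differed little, with 61 of 66 compared bases equal (92.4%). Each unit also carried a CACCTG, an E-box that is not of the extended form. The region as a whole held 22 CANNTG, 11 of which were CACCTG or its complement. In the reference 7.95% of the region was marked as repeat sequence.

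The other regions of Dpysl5 with all 3 antibodies were weaker. Region 13, in intron 2 at 63.2 kb, scored 616, 398 and 57.6 with ab1, ab2 and ab3, and lay 3.362 kb from another annotated start of Dpysl5. Region 3, in intron 1 at 6.88 kb, scored 371, 291 and 51.2, and its ab3 score was above only 2.13% of ab3 peaks. Each of the 3 antibodies gave its highest score to region 8 and its lowest to region 3 among the 4.

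At the start site of Dpysl5 the signal was broad. Region 2, at chr5:30711100-30713989, covered the start site, had its midpoint 980 bp downstream of it, and scored 423 with ab1 and 93.1 with ab2, above 77.5% and 36.8% of the peaks of each list. The ab2 score came from a peak that began downstream of the start site, and the ab2 peak over the start site itself scored 52.3, above 3.26% of ab2 peaks. The region was 2890 bp wide, wider than 98.8% of shared regions, and was the only 1 of the 25 without an extended E-box anywhere within it. It did hold 14 CANNTG. The 250 bases before and 50 after the RefSeq start of Dpysl5 held no extended E-box, and the same was true of both RefSeq starts of Crmp1. Of the 32851 RefSeq promoters of that length in GRCm38.p6, 26.3% held 1 or more. Only these 3 promoters of the family matched the table used.

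Dpysl4 had few regions in its small gene but strong ones on either side. It encodes CRMP3, a family member studied for its part in dendrite growth of hippocampal neurons. The gene (ENSMUSG00000025478.15) lies on the plus strand at chr7:139086001-139102704 and spans 16.7 kb. The window held 7 ab1 peaks, 4 ab2 peaks and 3 ab3 peaks, which formed 7 regions. Of its 4 shared regions 3 had all 3 antibodies, and none lay inside the gene, where 2 weak regions of ab1 alone scored 70.8 and 60.4.

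Dpysl4 region 1, at chr7:139076418-139079134 and 8.225 kb upstream of the start site, scored 3100 with ab1, 1926 with ab2 and 254 with ab3, above 98.6%, 98.7% and 88.5% of the peaks of each list. It was 2717 bp wide and held 8 extended E-boxes. The pair of CAGCTG cores shown above for it lay 230 bp from its midpoint. Region 2, at 4.584 kb upstream, scored 681 with ab1 and 256 with ab2 and had no ab3 peak. Both regions upstream were closer to the start site of Dpysl4 than to that of any other gene's longest transcript.

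Downstream of Dpysl4 both shared regions lay within Stk32c, a kinase gene on the opposite strand whose end is 0.934 kb from that of Dpysl4. Region 5, at chr7:139103767-139104690, scored 1344, 423 and 70.8 with ab1, ab2 and ab3, and its midpoint fell in coding exon 12 of Stk32c. Region 6, in intron 2 of Stk32c and 40.7 kb from the start site of Dpysl4, scored 148, 182 and 64.9. Among the starts of each gene's longest transcript the closest to both was that of Dpysl4, although the sequence belongs to Stk32c. A stretch of region 5, chosen after its values were seen, carried a pair of CAGATG cores whose starts were 11 bp apart.
Dpysl4 region 5, chr7:139104226-139104375, plus strand: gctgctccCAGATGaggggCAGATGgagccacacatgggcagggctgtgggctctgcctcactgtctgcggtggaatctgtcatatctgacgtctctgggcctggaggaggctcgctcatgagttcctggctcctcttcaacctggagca
Capitals mark the cores. With 3 extended E-boxes in its central 200 bp, region 5 differed from region 1 of the same locus, which had none there and higher scores with every antibody.

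**Figure D2:**
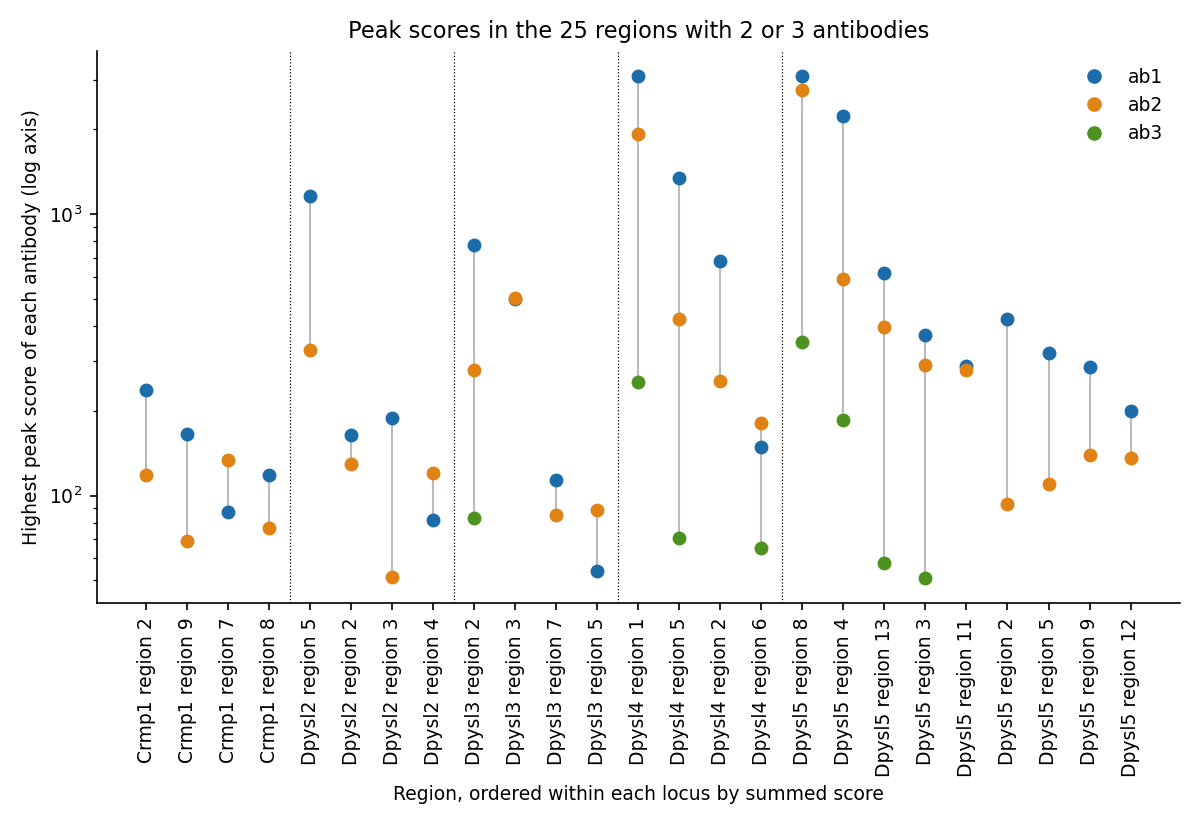
Highest peak score of each antibody in the 25 shared regions (log axis), ordered within each locus by summed score. Points joined by a line belong to 1 region, green points mark the 8 regions with an ab3 peak, and Crmp1 and Dpysl2 have none.

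All shared regions of Dpysl3 lay in its long intron 1. It encodes CRMP4, which binds and bundles actin filaments as well as binding tubulin. The gene (ENSMUSG00000024501.20) lies on the minus strand at chr18:43320984-43438286 and spans 117 kb, of which intron 1 makes up 63.3%. The window held 6 ab1 peaks, 5 ab2 peaks and 1 ab3 peak, and 4 of its 7 regions were shared. With 1.84 shared regions per 100 kb it had the lowest density of the family, above 67.0% of protein-coding genes.

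Dpysl3 region 2, at chr18:43391641-43394168, scored 775 with ab1, 279 with ab2 and 83.5 with ab3. Its midpoint was 45.4 kb downstream of the start of the longest transcript but 473 bp from the start of another annotated Dpysl3 transcript, so it was intronic for the longest form and close to a start site for the shorter one. It was 2528 bp wide, wider than 98.0% of shared regions, and its central 200 bp were 68.5% G and C with 24 CpG. Region 3, 35.2 kb from the start site, scored 497 with ab1 and 502 with ab2 and had no ab3 peak. The other shared regions were weak. Region 7, 3.60 kb from the start site, scored 114 and 85.4 with ab1 and ab2, and region 5, at 19.3 kb, scored 53.9 and 88.6.

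Dpysl2 had its strongest region at its start site. The gene (ENSMUSG00000022048.8) lies on the minus strand at chr14:66802864-66868688, spans 65.8 kb, and has 1 annotated transcript. The window held 5 ab1 peaks, 4 ab2 peaks and no ab3 peak. Of its 4 shared regions, 2 had midpoints within 1 kb of the start site and 2 lay in introns 7 and 8.

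Dpysl2 region 5, at chr14:66868411-66869810, covered the start site, with its midpoint 422 bp upstream. It scored 1160 with ab1 and 330 with ab2, above 92.1% and 78.8% of the peaks of each list, and had no ab3 peak. A lincRNA gene transcribed in the other direction, Gm5464, starts 260 bp from the midpoint, between it and the start site of Dpysl2, so the region covers both starts and its midpoint falls in exon 1 of Gm5464. Its central 200 bp were 77.0% G and C with 28 CpG and held no CANNTG. The extended E-box shown above for it was 194 bp from the midpoint, and the region held 3. Region 4, with its midpoint 941 bp inside the gene in intron 1, was far weaker, at 81.9 with ab1 and 120 with ab2. In the introns, region 2 scored 164 and 129 and region 3 scored 189 and 51.4, and each had an extended E-box in its central 200 bp.

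The strongest shared region of Crmp1 scored lower than the strongest of any other member. CRMP1 takes part in the response to semaphorin 3A downstream of Fyn and Cdk5 and in the radial migration of cortical neurons. The gene (ENSMUSG00000029121.16) lies on the plus strand at chr5:37242080-37292133 and spans 50.1 kb. The window held 9 ab1 peaks, above 89.9% of protein-coding genes, but 4 ab2 peaks and no ab3 peak. Only 1 of the 4 shared regions, region 7 in intron 1 at 12.7 kb from the start site, lay within the gene, and it scored 87.2 with ab1 and 133 with ab2. The strongest, region 2, lay 44.172 kb upstream in intron 33 of the gene Gm1043 and scored 237 and 118, with its nearest extended E-box 262 bp from the midpoint. Regions 8 and 9 lay downstream in Evc and at the start of Evc2, 59 bp from its start site, and scored 119 and 166 with ab1 and 76.5 and 69.2 with ab2.

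At the annotated starts of Crmp1 the peaks came from ab1 alone. Region 5 had its midpoint 12 bp upstream of the start of the longest transcript and scored 50.9, above 0.984% of ab1 peaks, close to the lowest score in the list. Region 6 had its midpoint 388 bp from another annotated start of Crmp1 and scored 418, above 77.2% of ab1 peaks and more than any shared region of the locus. Neither region had an extended E-box in its central 200 bp, where G and C made up 79.0% and 73.0% of bases. Since a single antibody gave them, neither entered the counts of shared regions.

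Peaks of ab3 were the fewest at the family's loci as in the genome. Of the 25 shared regions 8 held all 3 antibodies, or 32%, where 22.2% of the 32261 shared regions of the genome did. With peaks scoring at least 100 it was 3 of 17, and within the gene span 5 of 17, with no genome share at those settings. At least 1 such region was present at 3 of the 5 members, Dpysl3, Dpysl4 and Dpysl5, against 26.7% of protein-coding genes. Of the 5 family regions with an ab1 score of 1000 or more, 4 had an ab3 peak, and the 1 without was Dpysl2 region 5 at the start site. In the genome 84.2% of regions this strong had an ab3 peak. The share was 87.1% of 4395 where the midpoint was over 1 kb from the start of any gene's longest transcript and 58.8% of 510 where it was nearer. The part of distance from a start site in the absence of ab3 at Dpysl2 was not tested.

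**Figure D3:**
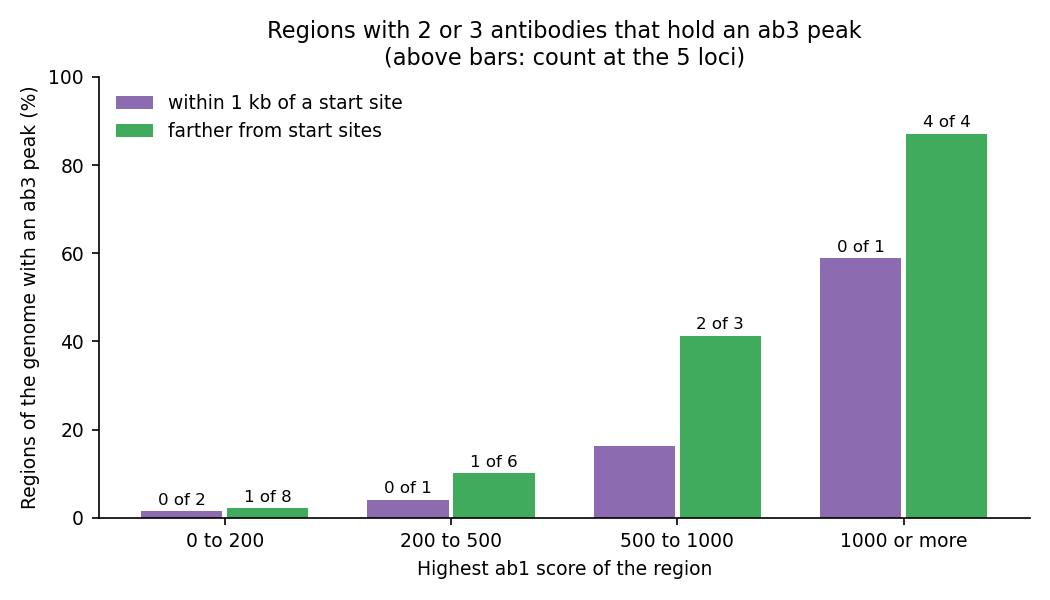
Percent of the shared regions of the genome that held an ab3 peak, by the highest ab1 score of the region and by distance from start sites. Near means a midpoint within 1 kb of the start of any gene's longest transcript. Numbers over the bars are the counts at the 5 loci, with 4 of 4 far from start sites and 0 of 1 near them at scores of 1000 or more.

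High scores of ab1 went with high scores of ab2. Over the 25 regions of the family the scores of ab1 and ab2 gave a Spearman correlation of 0.790, and over 32210 regions of the genome the value was 0.845. The points all come from the same pair of libraries, and the correlation is given as a description. The median ratio of the ab1 to the ab2 score was 1.55 in the family and 1.84 in the genome. In 5 of the 25 regions ab2 scored above ab1 (20%, against 10.8% in the genome), and these were spread over Crmp1, Dpysl2, Dpysl3 and Dpysl4.

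Placed by midpoint in the member's longest transcript, 17 of the 25 shared regions were in introns, 4 upstream, 4 downstream and none in an exon. The midpoints of 21 of the 25 (84%) lay over 1 kb from the start of any gene's longest transcript, close to the 84.3% of shared regions of the genome. Dpysl3 region 2 is among the 21, although it lay 473 bp from another annotated start of its gene. Of the 17 in introns, 12 were in intron 1, which makes up 40.5% of the summed gene spans. With only the start of each gene's longest transcript, the member's own start site was the closest for 15 of the 25. Shared regions within 1 kb of the member's start site were found at 2 of the 5 genes, Dpysl2 and Dpysl5, against 20.8% of protein-coding genes, and at neither without ab1 or without ab2. The region nearest to the border of 50 kb on the inside was Dpysl4 region 7, 46.9 kb from the gene, with an ab1 score of 85.7, and the nearest on the outside was an ab1 peak 57.3 kb from Crmp1 with a score of 94.9.

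Counted by genes, Dpysl5 stood above the rest of the family on each measure. A gene score was computed that sums, over the shared regions closest to a gene's start site, a weight falling exponentially with distance with a decay length of 5000 bp, less the value expected for evenly spread regions. Genes over the mean plus 1 SD of all genes with at least 1 such region, a score of 0.899, were counted as over the threshold. Dpysl5 scored 1.01, above 97.0% of protein-coding genes, and was the only member over the threshold, which 8.43% of protein-coding genes passed. With 1 start site per gene, that of its longest transcript, 4 of the 9 shared regions of Dpysl5 counted towards this score. The others, region 8 among them, were closest to the start of Gm42764, a noncoding gene annotated as sense intronic, and added nothing. Dpysl2 scored 0.77, Dpysl4 0.50, Dpysl3 0.39 and Crmp1 -0.04. At Dpysl2 1 of the 4 shared regions counted, the weak region 4. Region 5 was closest to the start of Gm5464, and regions 2 and 3 to that of the pseudogene Gm9130. Without ab1 or without ab2 no member passed, and the same held with peaks scoring at least 100 or a decay length of 1000 bp. With protein-coding genes only, Dpysl2 passed as well, and with a decay length of 50000 bp Dpysl3 and Dpysl4 did. By number of shared regions, Dpysl5 was also the only member among the 14.4% of protein-coding genes with 5 or more, while the others, with 4 each, were above 78.4%. Without ab1 or without ab2 the same rule took in every gene with 1 region, or 26.8% of protein-coding genes in each case, and 3 members, Dpysl3, Dpysl4 and Dpysl5. With the rule applied anew, the gene span alone took in 12.8% of protein-coding genes with Dpysl2, Dpysl3 and Dpysl5, and a window of 10 kb took in 11.7% with Dpysl4 as well. A window of 100 kb took in 10.4% with Crmp1 and Dpysl5, and peaks scoring at least 100 took in 10.9% with Dpysl4 and Dpysl5.

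**Figure D4:**
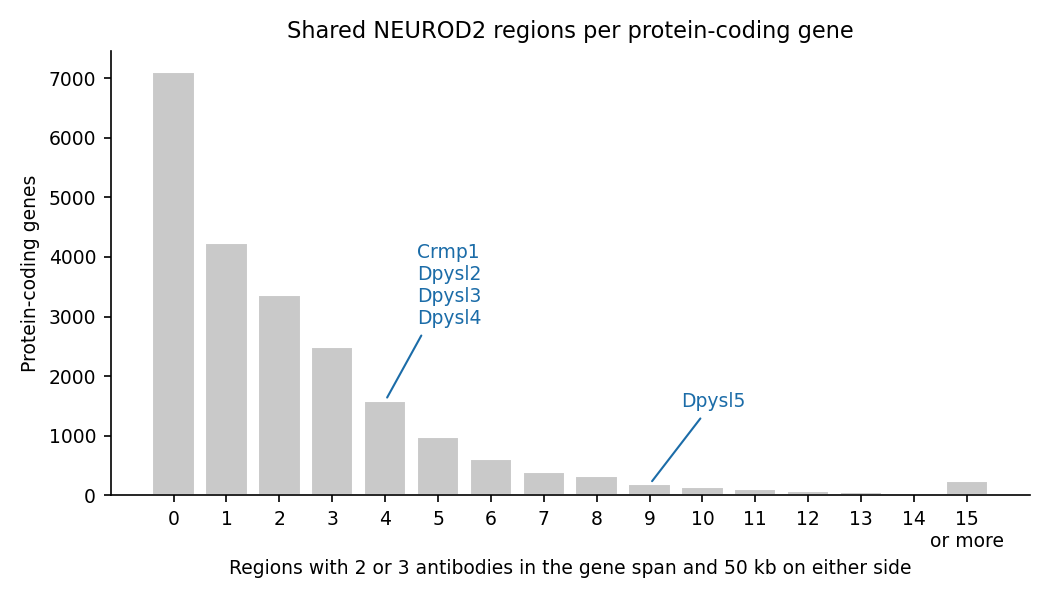
Number of protein-coding genes (vertical axis) by the number of shared regions in the gene span and 50 kb on either side (horizontal axis, the last bar pooled). The 4 members with 4 regions sit 1 short of the 5 that the 10% of genes with most regions have at least, and Dpysl5 sits at 9.

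An extended E-box was present in the central 200 bp of 16 of the 25 shared regions, or 64.0% (95% Wilson interval 44.5 to 79.8, counting error only), and in 59.7% of the shared regions of the genome, so the family's share was close to the background. Without ab1 or without ab2 it was 50% of 8. Read with each antibody's own peaks, the share was 73.8% of 42 for ab1, 60.7% of 28 for ab2 and 66.7% of 9 for ab3, or 67.1% ± 6.56 (SD, n = 3 antibodies). Cores were also counted over any CANNTG in the central 200 bp, extended or not, each together with its complement. The most frequent was CAGATG or CATCTG, found in 13 of the 25 (52.0%, against 43.1% in the genome). CAGCTG was found in 5 (20%, against 28.1%). Over their whole length 24 of the 25 regions held an extended E-box, as did 90.3% of those in the genome, and the median density was 2.96 per kb against 2.24.

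The pair of regions with the highest summed scores, Dpysl5 region 8 and Dpysl4 region 1, had no extended E-box at their centre, and the next pair, Dpysl5 region 4 and Dpysl4 region 5, did. Of the 8 regions with all 3 antibodies 4 had an extended E-box in the central 200 bp, and of the 17 with ab1 and ab2 12 had one (70.6%). In the genome the shares were 63.5% of the former and 58.6% of the latter. The intervals of the family's shares, 21.5 to 78.5 and 46.9 to 86.7, give counting error only, and the difference was not tested. The 4 without one were Dpysl5 regions 8 and 13, Dpysl4 region 1 and Dpysl3 region 2, in which the nearest was 509, 238, 230 and 430 bp from the midpoint. These 4 were between 1550 and 3763 bp wide, where the family median was 908 bp, and none of them had an extended E-box in the 200 bp around its highest peak either. Within 1 kb of the start of any gene's longest transcript the motif was present in 1 of 4 family regions and in 27.2% of the genome's. Farther away it was present in 15 of 21 (71.4%) and in 65.7%.

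**Figure D5:**
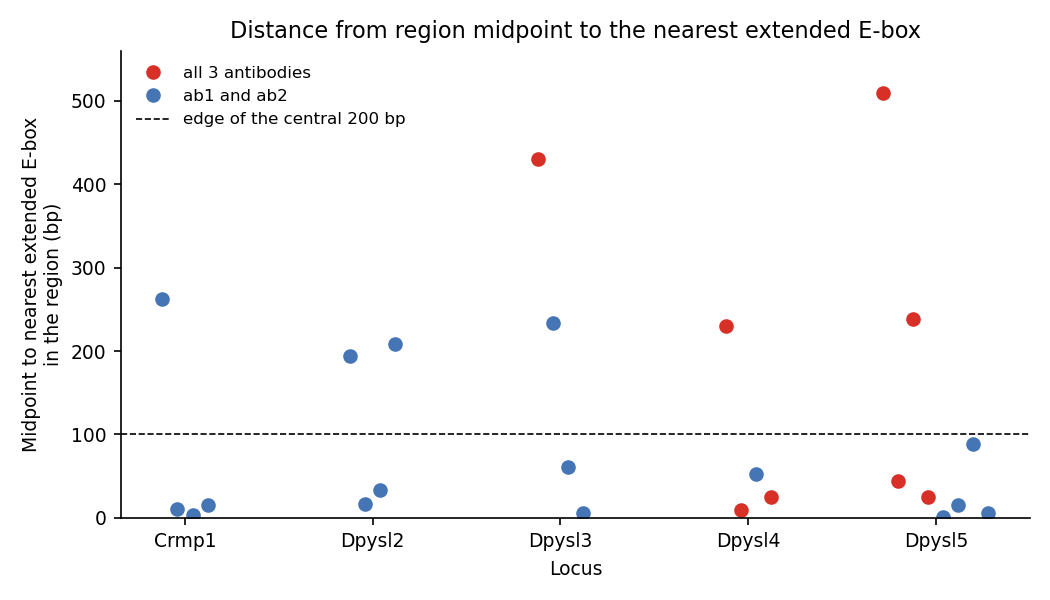
Distance in bp from the midpoint of each shared region to the nearest extended E-box within it, by locus, for 24 of the 25 regions (Dpysl5 region 2 has none). Red points are regions with all 3 antibodies, blue points those with ab1 and ab2, and 4 of the 8 red points lie above the line that marks the edge of the central 200 bp.

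Genes that act with the CRMPs were looked at in the same windows, from lists that were drawn up from knowledge of the proteins with earlier results of these data known. Of 10 kinases and kinase subunits that phosphorylate CRMPs, 8 had at least 1 shared region, 6 had 1 with all 3 antibodies, 7 had 1 within 1 kb of the start site and 3 were over the gene score threshold. Over all protein-coding genes the shares were 67.6%, 26.7%, 20.8% and 8.43%, in the same order, so having a shared region was near the background. The median was 3.5 shared regions. Fyn, a Src-family kinase that acts with CRMP1 downstream of semaphorin 3A, had 23, and Cdk5r1, the activator p35 of Cdk5, had 10 and a gene score of 2.04. Cdk5 itself had 7. Rock1 and Fes had none.

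All 7 genes of the semaphorin 3A route had a shared region, against 67.6% of protein-coding genes, with a median of 7. With all 3 antibodies 4 had 1, against 26.7%. Within 1 kb of the start site 2 had 1, against 20.8%, and 2 were over the gene score threshold, against 8.43%. Long genes have wide windows, and Plxna4 spans 444 kb where the median window of protein-coding genes is 117 kb. Plxna4 had 22, Plxna2 had 12 and Nrp1 had 10, while Plxna1 and Plxna3 had 1 each. The plexin and neuropilin genes encode the receptor of semaphorin 3A. Per 100 kb of window the values were 4.04 regions for Plxna4 and for Plxna2 and 4.10 for Nrp1. Of the 11 genes for binding partners and cargo adaptors, all had a shared region, against 67.6% of protein-coding genes, with a median of 3. Tuba1a, an alpha-tubulin of developing neurons, had 15, Tubb2b had 9 and the kinesin light chain gene Klc1 had 8. The members themselves had a median of 4 and a range of 4 to 9. Per 100 kb the median was 3.22 for the kinases, 2.67 for the members, 2.30 for the semaphorin 3A route and 1.42 for the binding partners, and these differences were not tested. Dpys, the enzyme to which CRMPs are related and which acts in the liver and kidney, had 4 shared regions, none with all 3 antibodies, and 1 of them lay within 1 kb of its start site. A count of 4 was thus not particular to the neuronal members. Nhlh2, a known target whose promoter served as positive control for the precipitation, had 8 and a gene score of 2.36.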

How the data were processed

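Reads were mapped to mm10 with Bowtie by the authors, who dropped duplicate and multiply mapped reads and ran MACS once per antibody with the GFP library from that antibody's host as control. The deposited score, which the files do not name, was taken as that program's -log10 p multiplied by 10, with no scaling of libraries to each other. From these lists, peaks that shared at least 1 bp were merged, and regions with at least 2 antibodies were kept. Positions count from 1. Genes are those of GENCODE M21 (55413 genes), each with its longest-span transcript, and sequence was read from GRCm38. The calculations were tested on simulated data and run with Python 3.11.15, numpy 2.4.6, scipy 1.17.1 and pysam 0.24.0. No hypothesis was tested, since 1 condition with 1 library per antibody offers no contrast. The members and lists were chosen with earlier results of these data known. Named were all members, the regions with the 3 highest summed scores, closest to the start site or with all 3 antibodies. The neighbours Jakmip and Stk32, Dpys, Nhlh2 and genes closest to or holding a shared region were named as well. From each list came the 3 genes with most regions and those with none. Plxna1 and Plxna3 were named after their values were seen. Alternatives were other score minima, overlaps, windows, start sites, motif settings, decay lengths and leaving out each antibody. Reads, GFP and input libraries, and expression data were not used here.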

Additional observations from a re-analysis of the deposited data

How the results depend on the processing

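With ab1, ab2 or ab3 left out in turn, the regions with 2 or 3 antibodies ranged from 8 to 25, the members with a region within 1 kb of the start site from 0 to 2, the E-box share from 50% to 64.0%, the members over the gene score threshold from 0 to 1 and those among the 10% of protein-coding genes with most regions (top genes, ties kept) from 1 to 3. The lower values, and for the top genes the higher, came without ab1 or ab2, where 1 region sufficed and ties made up 26.8% of genes. With only 2 antibodies, regions of all 3 could not be counted. With peaks scoring at least 100, 3 regions had all 3 antibodies, 1 member had a region within 1 kb of the start site, 0 passed the gene score threshold and 2 were top genes (10.9% of genes). With the gene span alone there were 26 regions, 5 of them with all 3 antibodies, and 3 members were top genes (12.8% of genes). A window of 10 kb gave 4 members as top genes (11.7% of genes), and one of 100 kb gave 2 (10.4%) and 38 regions with 2 or 3 antibodies. The E-box share was 72.0% around the highest peak, 80.0% for any CANNTG, 52.0% in 100 bp, 96.0% over the whole region and 50% for regions of all 3 antibodies. The gene score threshold was passed by 2 members (Dpysl2 and Dpysl5) with protein-coding genes only, by 0 with a decay length of 1000 bp and by 3 (Dpysl3, Dpysl4 and Dpysl5) with 50000 bp. Of 99 alternative values 56 stayed within 1.5 times the reported count, or for the E-box share within 6.56 percentage points, the SD over antibodies. The cause of the other changes was not tested beyond what fewer antibodies or another window make by construction.

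No paired analysis was possible because the GFP libraries have no peak lists here. Peak lists give no depth, so a missing ab3 peak, in a list with 7470 peaks against 51841 for ab1, does not show that a site is unbound.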

Other observations

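Crmp1, Dpysl3 and Dpysl4 each lie between a gene of the Jakmip family, which encode microtubule-binding proteins of neurons, and a gene of the Stk32 family of kinases. Gaps to the Jakmip gene were 117 kb for Crmp1, 93.1 kb for Dpysl3 and 59.1 kb for Dpysl4, and gaps to the Stk32 gene were 155, 2.30 and 0.934 kb. Dpysl2 and Dpysl5 have no such neighbours among the 6 genes looked at. NEUROD2 regions with 2 or 3 antibodies were present in all 6 neighbours' windows, as in those of 67.6% of protein-coding genes. Jakmip1 (the longer of 2 annotated genes of that name) had 7, of which 4 had all 3 antibodies, Jakmip2 had 4 and Jakmip3 had 3. Stk32c had 5, Stk32b had 4 and Stk32a had 1. At the Crmp1 block the neighbours thus had regions of all 3 antibodies, 4 for Jakmip1 and 1 for Stk32b, where the window of Crmp1 itself had none. At the Dpysl4 block the windows of Dpysl4 and Stk32c overlap, and each had 3 such regions, which are the same 3 regions. Whether these arrangements bear on the binding was not tested.

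Of the 25 shared regions, 4 had their midpoint within 1 kb of an annotated start of the member, counting all its transcripts, and Crmp1 region 9 lay 59 bp from that of Evc2. These 5 held 10 to 28 CpG in their central 200 bp, the most in Dpysl2 region 5. The other 20 held 0 to 5, and Dpysl4 region 1 and Dpysl5 region 8, the strongest of the family, held 3 and 2.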
